A study of Rattus norvegicus with 8 samples.

Results

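Troponin is the calcium switch of the striated muscle thin filament. Troponin C binds calcium, troponin I holds the filament off until calcium comes, and troponin T ties the complex to tropomyosin. Each subunit has isoforms encoded by separate genes. Tnnt1, Tnni1 and Tnnc1 are the slow forms (Tnnc1 also serves the heart), Tnnt3, Tnni2 and Tnnc2 are the fast forms, and Tnnt2 and Tnni3 are the cardiac forms. Tnnt2 is also known from embryonic skeletal muscle and Tnni1 from developing heart.

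The 8 troponin genes were taken as every probe set annotated to exactly 1 of these symbols, which gave 10 probe sets, with a pair each for Tnnt2 and Tnni1, out of 15923 probe sets on the array and 10411 genes with 1 symbol. The samples were laser captures of the extraocular (eye-moving) muscles of adult rats, 4 of its global layer (next to the eyeball) and 4 of its orbital layer (next to the bone). The sources used here give no strain, sex or exact age, and the labels name no treatment. Each capture was hybridised to 1 array of RNA amplified from a T7 promoter, captures are numbered within a layer only to name them, and the titles carry a prefix, R2 or R3, that the labels do not explain. The labels do not tie captures to animals. Where captures of a layer share an animal, p-values over captures are too small, and sharing between the layers was not accounted for. Orbital captures 3 and 4 have nearly the same title (R3OL1 and R3OL1.2) and may come from 1 sample, in which case the orbital layer has 3 samples and not 4. A layer is a mix of fibre types and other cells, so fewer fibres of a type and less RNA per fibre cannot be told apart.

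Intensities are the deposited linear values, whose median lay between 59.0 and 66.4 on the 8 arrays. The background level of an array was taken as the highest of its 27 control probe sets for bacterial genes, and it lay between 17.7 and 41.5. Differences are log2 of (intensity + 1), orbital minus global, with the standard error (SE) of the limma fit over 9520 probe sets and its Benjamini-Hochberg adjusted p, called under 0.05. Of the 10 troponin probe sets 8 were bright enough to be tested, and the second probe set of Tnnt2 and the only 1 of Tnni3 were not.

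In the annotation of the current rat assembly the troponin I and troponin T genes lie near each other. Tnni1 and Tnnt2 lie on chromosome 13 with 1 protein-coding gene between them, Tnni3 and Tnnt1 on chromosome 1 with 0 between them, and Tnni2 and Tnnt3 on chromosome 1 with 5 between them. The genes of troponin C lie apart, Tnnc2 on chromosome 3 and Tnnc1 on chromosome 16. The 250 bases before the start site are shown for 3 genes, from RefSeq (GRCr8, all on the plus strand). These are Tnnt2, which was called higher in the orbital layer, its neighbour Tnni1, which was called lower, and for comparison Tnnt1, the slow partner of Tnni1, which did not pass. Capitals mark 2 motifs searched on both strands, MCAT (CATTCC), which binds TEAD factors, and the E box (CANNTG), which binds myogenic bHLH factors, and no 2 of these matches overlap here.
Tnnt2, chr13:49818873-49819122: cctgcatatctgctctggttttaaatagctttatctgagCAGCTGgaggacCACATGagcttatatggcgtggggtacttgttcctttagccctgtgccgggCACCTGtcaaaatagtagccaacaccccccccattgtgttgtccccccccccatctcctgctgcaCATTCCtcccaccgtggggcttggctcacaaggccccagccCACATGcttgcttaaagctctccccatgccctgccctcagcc
Tnni1, chr13:49781279-49781528: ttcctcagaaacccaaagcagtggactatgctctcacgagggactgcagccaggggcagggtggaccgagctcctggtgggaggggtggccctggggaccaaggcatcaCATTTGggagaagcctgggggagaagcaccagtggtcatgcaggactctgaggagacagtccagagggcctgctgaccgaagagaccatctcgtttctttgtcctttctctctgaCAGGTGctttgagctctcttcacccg
Tnnt1, chr1:78348785-78349034: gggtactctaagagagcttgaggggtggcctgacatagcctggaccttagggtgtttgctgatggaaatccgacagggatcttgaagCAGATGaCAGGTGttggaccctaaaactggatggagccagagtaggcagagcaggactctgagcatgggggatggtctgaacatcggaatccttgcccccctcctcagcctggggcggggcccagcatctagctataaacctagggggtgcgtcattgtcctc

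The Tnnt2 window held 1 MCAT match, whose first base is 83 bases before the start site, and 4 E boxes. The Tnni1 and Tnnt1 windows held 0 MCAT matches and 2 E boxes each. Of 33469 such windows in the whole table, 12.1% held an MCAT match and 65.5% an E box. Tnnt1 alone of these 3 windows held a TATA box (TATAAA), 30 bases before its start, as did 12.9% of all windows. The MEF2 site and the CArG box, held by 2.96% and 1.5% of all windows, had 0 matches in these 3. The table lists a second start for Tnnt2 inside the gene, whose window held 0 MCAT matches and 1 E box. These matches describe letters only.

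Of the 8 troponin probe sets tested, 1 was higher in the orbital layer (Tnnt2), 2 were lower (both probe sets of Tnni1) and 5 did not pass. Over all 9520 probe sets tested 7.41% passed, 3.91% higher and 3.50% lower in the orbital layer. The layers did not overlap for 2 of the 8, 1 with the orbital captures above and 1 with them below. Among all tested this held for 14.1%, 7.31% with the orbital captures above and 6.75% below. The fast and slow genes that did not pass, 5 in number, all had a lower mean in the orbital layer, with log2 differences from -0.55 to -0.07 beside a median of 0.02 over all probe sets. With cyclic loess normalization these lay from -0.46 to -0.0036, among them Tnnt1 (-0.0036) and Tnnc2 (-0.026). Their shared direction was not tested.

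**Figure D1:**
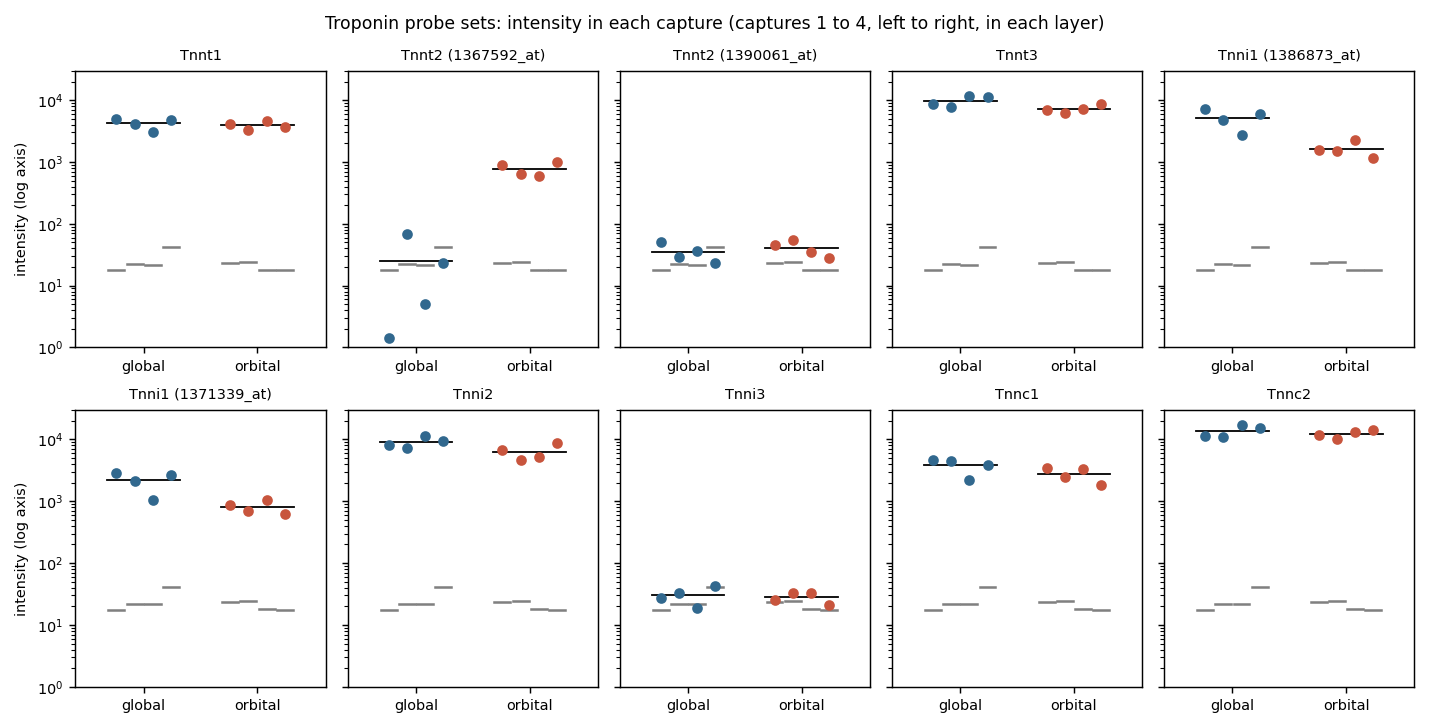
Intensity (vertical axis, log scale) of each of the 10 troponin probe sets in the 4 global (blue) and 4 orbital (red) captures. Points are captures, black lines the mean of the layer, and short grey lines the background level of each array. Tnnt2 (1367592_at) lies between 597.6 and 989.9 in the orbital layer and at 69.6 or below in the global layer, and Tnni3 lies near the background level in both.

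Tnnt2, the cardiac troponin T, was the troponin with the largest difference. Its probe set 1367592_at had intensities of 895.8, 650.3, 597.6 and 989.9 in orbital captures 1 to 4, and of 1.4, 69.6, 5.0 and 23.5 in global captures 1 to 4. The layers did not overlap, and the global captures spread widely around the background level. The orbital mean was 783 ± 189 (SD, n = 4) and the global mean 24.9 ± 31.3, with a log2 difference of 5.93 ± 0.75 (SE, limma adjusted p = 0.000403), with a 95% confidence interval of 4.31 to 7.56. It passed the filter on dim values only through the orbital captures, since its mean log2 value in the global layer (3.65) lay under the filter of 5.33.

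The size of the Tnnt2 difference depends on how values near background are treated. In the global layer 3 of 4 captures were at or under the background level, and global capture 2 was above it. With all values under the background level raised to it, the log2 difference was 4.51, and with a pseudocount of 64 it was 3.29. Raising values also narrows the spread of the global captures, so its smaller limma adjusted p (8.23e-06) is no added support. The log2 difference was 5.88 among captures of title prefix R2 and 5.99 among those of R3 (limma adjusted p = 0.000552). In R2 alone the call was lost (limma adjusted p = 0.0770 with 2 captures a layer). That fit called 106 of all 9520 probe sets, against 705 with all captures.

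The second Tnnt2 probe set, 1390061_at, did not show this difference. It had 45.8, 54.0, 34.7 and 28.3 in the orbital captures and 50.8, 29.0, 36.9 and 23.3 in the global captures. The layers overlapped, all values were dim, and 1 global capture was under the background level. The log2 difference was 0.23 and was not tested under the filter, and without the filter its limma adjusted p was 0.814. Which part of the transcript each probe set reads is not given in the sources used here, and it was not tested why they differ.

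Tnni1, the slow troponin I, was lower in the orbital layer at both of its probe sets. Probe set 1386873_at had 1579, 1522, 2278 and 1143 in orbital captures 1 to 4 and 7078, 4842, 2743 and 5911 in global captures 1 to 4. The layers did not overlap, and the lowest global value (capture 3) lay closest to the highest orbital value (capture 3). The orbital mean was 1630 ± 473 (SD, n = 4) and the global mean 5143 ± 1842, 3.15 times as high, with a log2 difference of -1.62 ± 0.27 (SE, limma adjusted p = 0.00245).

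The dimmer Tnni1 probe set, 1371339_at, ran in parallel. It had 858.7, 691.7, 1054 and 619.3 in the orbital and 2886, 2145, 1037 and 2667 in the global captures. Here the layers overlapped, because global capture 3 lay just under orbital capture 3. The log2 difference was -1.36 ± 0.28 (SE, limma adjusted p = 0.00809). Among captures of title prefix R2 the log2 differences were -1.92 (1386873_at, limma adjusted p = 0.00751) and -1.69 (1371339_at, 0.0117). Among those of R3, which hold global capture 3, they were -1.32 (0.123) and -1.04 (0.234), and both calls were lost. Over all 9520 probe sets the fit of R3 alone called 170 and that of R2 alone 106, against 705 with all captures. The difference between prefixes was tested by an interaction term in limma, and neither Tnni1 probe set passed (limma adjusted p = 0.9999 for both, unadjusted p = 0.289 and 0.266).

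The other slow subunits did not pass the test. Tnnt1, the slow troponin T, had 4187, 3323, 4650 and 3674 in the orbital and 4889, 4092, 3013 and 4780 in the global captures. The layers overlapped throughout, and the log2 difference was -0.07 ± 0.17 (SE, limma adjusted p = 0.858), with a 95% confidence interval of -0.44 to 0.30. Its sign turned when global capture 1 or 4 or orbital capture 2 was left out, and among captures of R3 alone.

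Tnnc1, the troponin C of slow and heart muscle, had 3408, 2464, 3386 and 1857 in the orbital and 4736, 4547, 2184.5 and 3886 in the global captures. Orbital capture 4 was the lowest and global capture 3 the next lowest, and the layers overlapped. The log2 difference was -0.45 ± 0.25 (SE, limma adjusted p = 0.329), with a 95% confidence interval of -0.99 to 0.09, which includes 0.

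The 3 fast subunits were bright in every capture of both layers. Tnni2, the fast troponin I, had 6651, 4693, 5170 and 8881 in the orbital and 8253, 7283, 11483 and 9526.5 in the global captures. Its values overlapped because orbital capture 4 was high, and the log2 difference was -0.55 ± 0.21 (SE, limma adjusted p = 0.135). Tnni2 passed with quantile normalization (-0.48, limma adjusted p = 0.0499) and without orbital capture 4 (-0.73, limma adjusted p = 0.0341), and in no other of 22 alternatives.

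Tnnt3, the fast troponin T, had 7035, 6142, 7257 and 8636 in the orbital and 8699, 7887, 11680 and 11036 in the global captures. Global captures 3 and 4 were the highest, and the layers overlapped because global capture 2 lay within the orbital range. The log2 difference was -0.43 ± 0.17 (SE, limma adjusted p = 0.149).

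Tnnc2, the fast troponin C, had 11690, 10016, 13278 and 14352 in the orbital and 11156, 10954, 17159 and 15371 in the global captures. The ranges overlapped widely, and in each layer captures 3 and 4 were the brighter ones. The log2 difference was -0.13 ± 0.18 (SE, limma adjusted p = 0.735), with a 95% confidence interval of -0.53 to 0.26.

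Tnni3, the cardiac troponin I and the usual partner of Tnnt2 in heart, stayed dim. It had 25.3, 33.2, 32.6 and 21.0 in the orbital and 27.6, 32.4, 18.7 and 42.3 in the global captures. The layers overlapped, and all values were at most 42.3. It was under the filter and had no test, with a log2 difference of -0.07, and without the filter its limma adjusted p was 0.949.

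**Figure D2:**
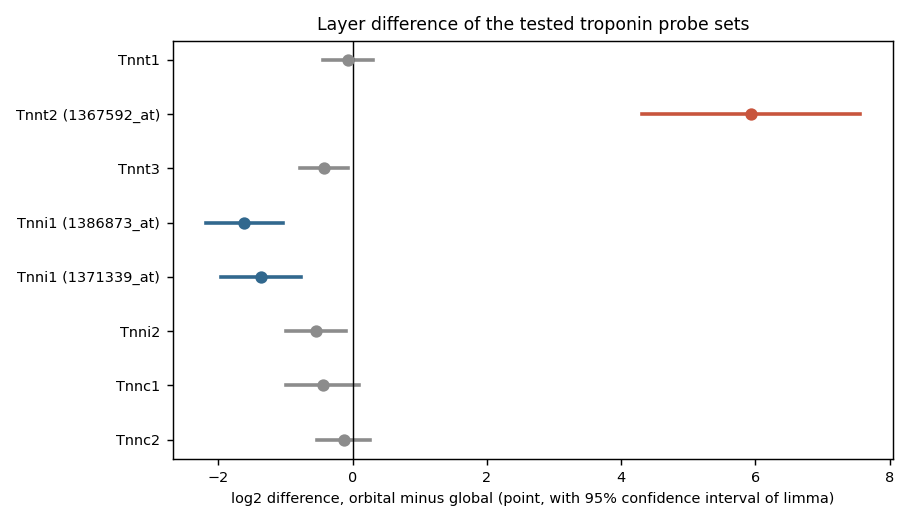
Log2 difference between the layers (horizontal axis, orbital minus global) of the 8 tested troponin probe sets, with the 95% confidence interval of the limma fit. Red is called higher in the orbital layer, blue is called lower and grey did not pass. Tnnt2 stands at 5.93 and the Tnni1 probe sets at -1.62 and -1.36, while the other 5 lie between -0.55 and -0.07.

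The share of each isoform was computed per array as its intensity over the summed intensity of the genes of its subunit, by the brightest probe set of a gene. Probe sets differ in how strongly they bind their target, so such a share is not a share of transcripts, and only its change between layers is read. For 7 shares a two-sided exact permutation test ran over the 70 splits of the captures, where the smallest p is 0.0286. None of the 7 passed after Benjamini-Hochberg adjustment, and a single share at the smallest p could not have passed. The shares of a subunit add up to the whole, so the tests are not independent.

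Within troponin T the share of Tnnt2 was 7.39%, 6.43%, 4.78% and 7.44% in orbital captures 1 to 4 and 0.0103%, 0.578%, 0.0340% and 0.148% in global captures 1 to 4. This was the only share of the 7 whose layers did not overlap. The orbital mean was 6.51% ± 1.25 (SD, n = 4) against a global mean of 0.193% ± 0.264 (exact permutation p = 0.0286, 0.160 adjusted). For Tnnt3 the orbital share was 60.4% ± 3.25 and the global share 69.7% ± 6.97 (exact permutation p = 0.0571, 0.160 adjusted). That of Tnnt1 was 33.1% ± 4.04 and 30.2% ± 6.87 (exact permutation p = 0.543). The shares of the slow and of the fast form overlapped between the layers, and the difference of the Tnnt1 share turned sign without global capture 3.

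Within troponin I the share of Tnni1 was 19.1%, 24.4%, 30.4% and 11.4% in the orbital and 46.1%, 39.8%, 19.3% and 38.2% in the global captures. Global capture 3 lay within the orbital range and the other 3 global captures above it. The orbital mean was 21.3% ± 8.09 (SD, n = 4) and the global mean 35.8% ± 11.6 (exact permutation p = 0.0857, 0.160 adjusted). For Tnni2 the shares were 78.3% ± 8.20 and 63.9% ± 11.6 (exact permutation p = 0.114), although its own intensity had a lower mean in the orbital layer. That of Tnni3 was at most 0.531% in any capture, so the Tnni2 share is nearly the rest left by Tnni1 and no separate result. Within troponin C the orbital share of Tnnc1 was 18.5% ± 4.87 and the global share 22.7% ± 8.77 (exact permutation p = 0.514), and that of Tnnc2 is the rest.

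**Figure D3:**
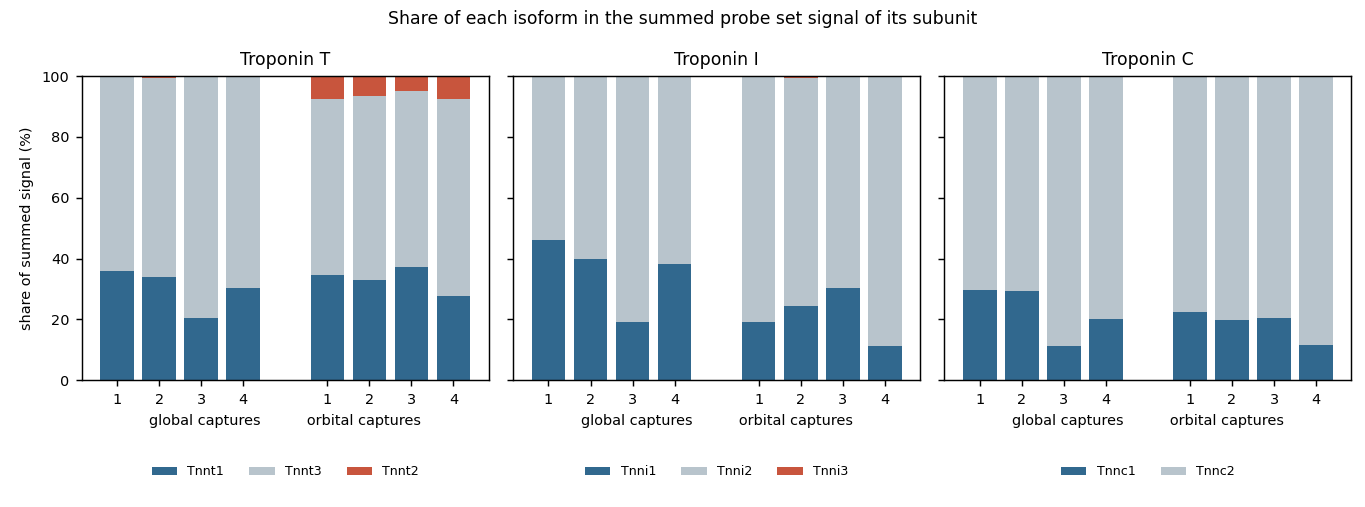
Stacked bars give the share (vertical axis, percent) of each isoform in the summed probe set signal of troponin T, I and C in each of the 4 global and 4 orbital captures. The red Tnnt2 segment reaches 4.78% to 7.44% in the orbital captures and at most 0.578% in the global ones. Tnni3 is too small to see.

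Ratios between subunits were then formed within each array. The ratio of Tnni1 to Tnnt1 intensity on the same array was 0.377, 0.458, 0.490 and 0.311 in orbital captures 1 to 4 and 1.45, 1.18, 0.910 and 1.24 in global captures 1 to 4. Global capture 3, low in slow troponins, kept a ratio above every orbital capture. The log2 difference was -1.55, with the geometric mean ratio 2.93 times as high in the global layer (exact permutation p = 0.0286, the smallest possible). Such a ratio shows unequal change of the 2 probe sets, and its level is no ratio of transcripts.

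The ratio of Tnni1 to Tnnc1 was 0.463, 0.617, 0.673 and 0.616 in the orbital and 1.49, 1.06, 1.26 and 1.52 in the global captures, also without overlap (log2 difference -1.17, exact permutation p = 0.0286). The ratio of Tnnc1 to Tnnt1 overlapped between layers (log2 difference -0.38, exact permutation p = 0.200). The ratios of Tnni1 to Tnnt1 and to Tnnc1 thus separated the layers. Both hold the Tnni1 values already called lower, so they are no separate support.

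Among the fast subunits the ratios moved less. The log2 ratio of Tnnt3 to Tnnc2 had an orbital mean of -0.76 ± 0.075 (SD, n = 4) and a global mean of -0.47 ± 0.081, without overlap (exact permutation p = 0.0286). That of Tnni2 to Tnnc2 was -0.99 ± 0.30 and -0.57 ± 0.11, and its layers were separated by a narrow gap, -0.692 in orbital capture 4 against -0.690 in global capture 4 (exact permutation p = 0.0286). That of Tnni2 to Tnnt3 overlapped (log2 difference -0.12, exact permutation p = 0.371). Both fast ratios over troponin C were thus lower in 4 of 4 orbital captures, with log2 differences of -0.29 and -0.42.

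Ratios of slow to fast within a subunit overlapped for all 3 subunits, with exact permutation p of 0.257 for Tnnt1 over Tnnt3, 0.0857 for Tnni1 over Tnni2 and 0.571 for Tnnc1 over Tnnc2. The ratios of Tnnt2 to Tnnt1 and to Tnnt3 did not overlap (exact permutation p = 0.0286 for both). Both hold the Tnnt2 values already called higher. These 11 ratios were chosen after the values were seen, 6 of them had layers that did not overlap, and the adjusted p of those 6 was 0.0524, so 0 of the 11 passed after Benjamini-Hochberg adjustment (6 at an unadjusted p under 0.05).

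**Figure D4:**
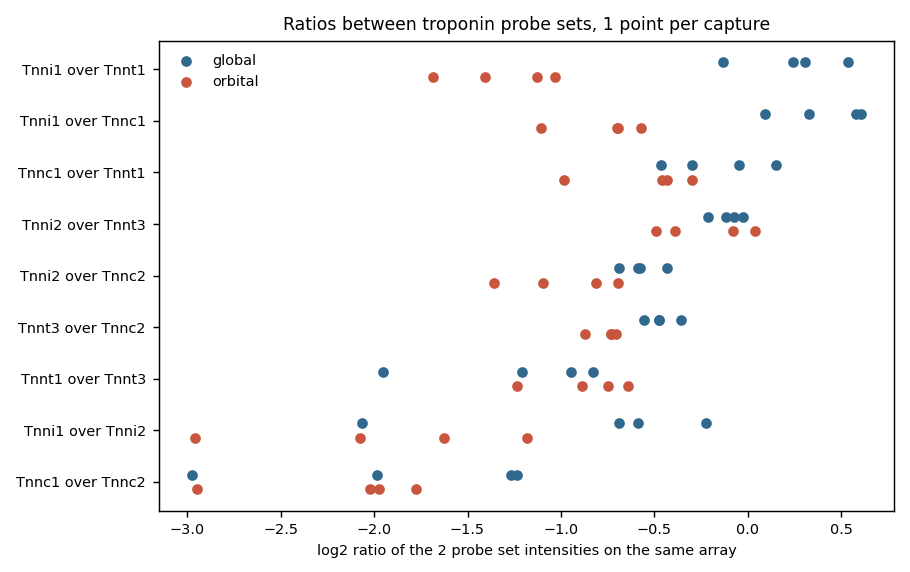
Log2 ratio of the intensities of 2 troponin probe sets on the same array (horizontal axis) for 9 pairs, with 1 point per global (blue) or orbital (red) capture. The ratios of Tnni1 to Tnnt1 and to Tnnc1 separate the layers, and so do those of Tnnt3 and Tnni2 to Tnnc2 by less, while slow over fast ratios overlap.

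Captures of a layer differed from each other along the slow and fast forms. In the global layer, capture 3 had the lowest value of Tnnt1, of both Tnni1 probe sets and of Tnnc1, and the highest value of Tnnt3, Tnni2 and Tnnc2. In the orbital layer, capture 4 had the lowest value of both Tnni1 probe sets and of Tnnc1 and the highest of the 3 fast genes, while Tnnt1 was lowest in capture 2. Of the summed signal of the 3 slow and 3 fast genes, the slow part was 16.5% in global capture 3 and 17.3% in orbital capture 4, against 28.9% to 37.3% in the other global and 26.0% to 28.6% in the other orbital captures. Without global capture 3 the log2 difference was -1.89 for Tnni1 (1386873_at), -0.70 for Tnnc1 (limma adjusted p = 0.0762) and -0.22 for Tnnt1 (0.499). Leaving out orbital capture 4 instead moved them the other way, to -1.46 for Tnni1 (1386873_at), -0.27 for Tnnc1 (limma adjusted p = 0.606) and -0.04 for Tnnt1 (0.946).

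The genes whose profile over the 8 captures was most like that of a called troponin were found by the root mean square distance of log2 values, each centred on its own mean, among 7156 genes. Closest to Tnni1 were Myh7, the slow myosin heavy chain (distance 0.321), Adhfe1, an alcohol dehydrogenase (0.357), and Myl2, a slow and ventricular myosin light chain (0.360). These distances are small beside the spread of Tnni1 itself, 0.921 from its own mean. Closest to Tnnt2 were Sln, the sarcoplasmic reticulum calcium pump inhibitor sarcolipin (1.65), LOC102553868 (2.01) and Ecrg4 (2.01), against a spread of 3.25. These genes share the arrays and the layer difference with the troponins, and nothing is read from the likeness.

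The genes that work with troponin were followed in lists, each gene by its brightest tested probe set, beside 293 higher, 257 lower and a median log2 difference of 0.02 over all 7163 genes tested. Of 16 thin filament partners 0 rose, 4 fell and 12 did not pass, with a median of -0.32. Tmod4, a tropomodulin that caps the thin filament in skeletal muscle, fell from a global mean of 1757 ± 248 (SD, n = 4) to an orbital mean of 390 ± 101 (-2.20, limma adjusted p = 3.31e-05). Tpm2, beta tropomyosin, to which troponin T binds, fell by 0.80 on the log2 scale (limma adjusted p = 0.00139). The actin capping subunit Capza2 fell (-0.72, limma adjusted p = 0.00357), as did the Z disc protein Actn3 (-3.75, limma adjusted p = 0.000425). Skeletal actin Acta1 (-0.34, limma adjusted p = 0.288) and Tpm3, the slow tropomyosin (0.65, 0.169), did not pass. Alpha tropomyosin Tpm1 did not pass at its brightest probe set (-0.37, limma adjusted p = 0.272), and 1 of its 5 tested probe sets, a dimmer one, was called lower (-1.25, 0.00194).

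Contractile partners of the fast, slow and cardiac forms went different ways. Of 11 fast partners 6 fell and 0 rose, with a median of -0.82, among them Myom2 (-4.59), Mybpc2 (-3.54), Pvalb (-3.44) and Myoz1 (-1.37). The fast light chain Myl1 (-0.01) did not pass, nor did the heavy chains Myh4 (-1.12), Myh1 (-0.09), Myh2 (0.25) and Myh13 (0.24). Of 10 slow partners 3 rose (Atp2a2, Casq2 and Mb, which handle calcium and oxygen) and 4 fell (Myh7, Myl2, Myl3 and Pln, of which the first 3 are myosin chains and Pln restrains the calcium pump), with a median of -0.03. Of 8 cardiac and developmental partners tested 5 rose (Sln, Myh3, Myh6, Hopx and Myh8) and 0 fell, with a median of 1.79. Many of these genes were already known to differ in these captures when the lists were made, so the counts are a description.

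Genes listed as regulators of troponin genes and transcripts were counted beside the 293 higher and 257 lower of all 7163 genes tested. Of 17 transcription factors tested 1 rose and 1 fell. Sox6, a repressor of slow fibre genes, fell from a global mean of 89.9 ± 14.5 (SD, n = 4) to an orbital mean of 37.7 ± 4.78 (-1.23 ± 0.21 SE, limma adjusted p = 0.00296), and the layers did not overlap. The orbital mean of Sox6 lay under the filter (intensity 39.4), so Sox6 passed the filter only through the global captures. Myf6, a myogenic factor, rose by 0.64 (limma adjusted p = 0.0175). Of 11 splicing factors listed for troponin T transcripts 0 passed in limma (1 at an unadjusted p under 0.05), and the smallest adjusted p was that of Rbm24 (-0.34, limma adjusted p = 0.165). Of 13 kinases and phosphatases known to act on troponin 1 fell, the protein kinase C Prkca (-0.77 ± 0.19 SE, limma adjusted p = 0.0263), with an orbital mean of 45.5 ± 4.52 and a global mean of 78.4 ± 6.34. Of the factors that bind MCAT, Tead1 (0.11), Tead2 (0.10) and Tead3 (0.24) did not pass, and Tead4 was not among the genes tested.

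Markers of the tissue and of other cells stood as follows. All 8 skeletal muscle markers were above background in every capture, with Ckm between 2115 and 7017, and their summed level was 29230.2 to 42967 in the orbital captures and 33462.9 to 47539 in the global ones. Of these 8, 1 rose (Mb) and 3 fell (Ttn, Ryr1 and Cacna1s). Of 8 heart muscle markers measured, Ryr2, Nkx2-5 and Tbx5 were at or under the background level in all 8 captures, Nppa, Nppb and Myl7 in 7 of 8, while Myl4 was above it in all but 1 and Gata4 in all 8. The summed heart markers lay at 174.8 to 380.1 in the orbital and 108.8 to 262.2 in the global captures, and 0 of the 2 tested passed. The single capture above background was an orbital one for each of Nppa (49.0 in orbital capture 2), Nppb (22.5 in orbital capture 3) and Myl7 (28.7 in orbital capture 3). This rests on the level of each array, which was 18.0 in orbital capture 3 and 41.5 in global capture 4. The highest Nppb value, 36.3, was in global capture 4, where Myl7 was 17.5. The part of heart muscle genes in the Tnnt2 difference was not tested.

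Of 4 smooth muscle markers measured 3 were tested and 1 fell (Myh11). The summed level of the 4 was 222.7 to 345.6 in the orbital and 524.2 to 694.0 in the global captures. Of this Myh11 alone had 93.6 to 215.9 in the orbital and 349.2 to 511.2 in the global captures. Acta2 (-0.05, limma adjusted p = 0.928) and Tagln (-0.73, 0.0977) did not pass. Of 3 nerve markers tested 1 rose (Nefm), with a summed level of 602.7 to 922.8 and 326.6 to 819.2 over the 4 measured. Photoreceptor markers summed to 386.2 to 1335 and 141.4 to 746.6. The part of these cells in the troponin differences was not tested. The Gapdh control's 3′ over 5′ signal, which rises as RNA is shortened, was 12.9 in orbital capture 3 and 8.64 in orbital capture 4. It was 6.33 and 5.81 in orbital captures 1 and 2, and 5.35 to 6.47 in the global captures. Orbital captures 3 and 4 held the lowest and the highest Tnnt2 value of the layer, and also the highest and the lowest Tnni1 value. The part of RNA shortening in the troponin differences was not tested.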

How the data were processed

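The deposited table holds 1 linear intensity per probe set and array, per the file headers and values. Per the labels, mRNA underwent T7 amplification (RiboAmp OA) before hybridisation to RAE230A arrays. How probes were summarised is not given in the sources used here. The authors' values were already scaled (the spread of trimmed means between arrays was 0.00389%) and were used as deposited, with 57 control probe sets left out. The filter kept probe sets from the 40th percentile of mean log2 value upward (intensity 39.4). On log2(intensity + 1), limma 3.58.1 in R 4.3.3 fitted layer alone (lmFit, then eBayes with intensity trend), and p-values were adjusted by Benjamini-Hochberg. The procedure was tested on simulated data. Shares and ratios were compared by exact permutation (Python 3.11.15).

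Gene names came from the array platform's annotation, which can be old, and all 8 gene identifiers matched the current RefSeq table. RefSeq promoters matched 6 of the 8 symbols (not Tnnt3 and Tnnc1). All troponin probe sets are named, with the 3 most alike genes of each called troponin, and up to 4 members of each list with the smallest p. List members named beyond this (Acta1, Tpm1, Tpm3, Myl1, Myh1, Myh2, Myh4, Myh13, Atp2a2, Myl2, Pln, Myh3, Tead1, Tead2 and Tead3) were chosen after their values were seen. The members and lists were chosen with earlier results of these data known. Alternatives were other normalizations, pseudocounts, filters and eBayes settings, the title prefix as a block or alone, orbital captures 3 and 4 averaged because their titles are nearly the same, each capture left out, and for shares other summaries of a gene's probe sets and a subtracted background. Raising values to the background level, and the ratios, were added after seeing the data.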

Additional observations from a re-analysis of the deposited data

Results flagged for a closer look

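The log2 ratio of Tnnt3 to Tnnc2 in orbital capture 3 was -0.87, set apart from the other 3 orbital captures (-0.73 to -0.71) by a gap of 0.836 of the whole orbital range, above Dixon's 95% critical value for 4 samples. It was the only 1 of 56 sets of 4 values checked this way, where chance marks about 1 in 20.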

How the results depend on the processing

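The count of troponin probe sets called higher in the orbital layer was 1 in 21 of 22 alternatives and 0 among captures of title prefix R2 alone. The count called lower was 2 or 3 in 21 of 22 (2 to 3 with 1 capture left out) and 0 among those of R3 alone. Of all 9520 probe sets, R2 alone called 106 and R3 alone 170, against 705 with all captures. The log2 difference of Tnnt2 (1367592_at) lay between 3.29 and 6.76, and that of Tnni1 between -1.92 and -1.32 (1386873_at) and between -1.69 and -1.04 (1371339_at). That of Tnnt1 turned to 0.12 among captures of R3 alone and lay between -0.22 and 0.013 with 1 capture left out. With the title prefix as a fixed replicate block the limma adjusted p was 0.000806 for Tnnt2, 0.00331 and 0.00998 for Tnni1, and 0.0505 for Tnnt3 (-0.43), and the block changed no call. Captures of 1 prefix deviated together only weakly across the layers (r = 0.161 across probe sets, which are not independent). No share passed after adjustment where a test was run (with 1 capture left out, 1 prefix alone or orbital captures 3 and 4 averaged they are values with no test). The Tnnt1 share difference (2.90 percentage points) turned to -1.27 among captures of R2 alone and to -0.318 without global capture 3. Among those of R3 alone the Tnnc1 share difference (-4.13) turned to 0.151 and the log2 ratio difference of Tnnc1 to Tnnc2 (-0.32) to 0.018. With orbital captures 3 and 4 averaged as 1 sample, the limma adjusted p was 0.00191 for Tnnt2 (5.93), 0.00311 for Tnni1 at 1386873_at (-1.63) and 0.0141 at 1371339_at (-1.38), and no call changed. The ratios with Tnnt2 could not be formed with the 5th percentile subtracted, which left a value of 0. With 4 arrays a layer, signal near background limits the size of the Tnnt2 difference and any statement on Tnni3.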
